A study of Rattus norvegicus with 12 samples.

Results

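Cirbp, the gene of the cold-inducible RNA-binding protein, was followed together with 5 genes of related proteins: Rbm3, Rbmx, Ybx1, Ybx3 and Carhsp1. They were chosen by name, from rows of the deposited expression table that carry 1 of these symbols, and each symbol had 1 row. All 6 were found among 18344 rows, and all 6 were among the 14257 genes that reached 1 FPKM in at least 3 libraries and were tested. FPKM are fragment counts scaled to transcript length and library size, so levels of different genes are compared per length.

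The data are 12 poly-A RNA-seq libraries of rat cells in 4 groups of 3, all taken after OGD/R (oxygen-glucose deprivation followed by reperfusion), a culture model of ischaemia. The CIRBP and NC groups are the first pair, and the si-CIRBP and si-NC groups the second. NC is a control whose nature the labels do not spell out, and si-NC is the control named for si-CIRBP. Every group carries OGD/R, so there is no baseline without it. How CIRBP was given is not stated in the labels, and the prefix ad on the table columns of the CIRBP and NC groups is not explained. Titles and source name the cells as H9C2, a line from embryonic rat heart, whereas the cell line label reads rat astrocytes. Each library is called a biological replicate without further detail, so p-values measure the spread between these libraries, and part of it may be technical.

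Marker genes did not settle the cell label. The summed level of 8 muscle markers was 5.98 to 7.34 FPKM in CIRBP and 4.11 to 5.71 FPKM in NC, with Myod1, Myog and Acta1 averaging under 0.1 FPKM in both groups. In the second pair it was 491 to 820 FPKM for the libraries labelled si-CIRBP and 82.5 to 1071 FPKM in si-NC, and most of it was Acta2. The lowest of these sums belonged to si-NC library 1. Myod1 was 9.83 to 11.6 FPKM for the libraries labelled si-CIRBP and 1.74 to 21.6 FPKM in si-NC. In the second pair Myog ran from 0.798 FPKM in si-NC library 1 to 44.8 FPKM in si-CIRBP library 3. Between the same libraries Acta1 ran from 0.201 to 12.1 FPKM and Tnnt2 from 5.05 to 89.9 FPKM. Tnnt2 was 2.61 to 4.56 FPKM over CIRBP and NC. The summed level of 6 astrocyte markers was 267 to 283 FPKM in CIRBP, 180.5 to 194 FPKM in NC, 182 to 196 FPKM across the libraries labelled si-CIRBP and 132 to 184 FPKM in si-NC. S100b and Aldoc made up most of that, and Aldh1l1 and Slc1a3 averaged under 0.1 FPKM in CIRBP and NC. The 4 fibroblast and mesenchymal markers summed to 3771 to 4940 FPKM, most of it Vim and S100a4. Col1a1, another of the 4, split the pairs, at 1.02 to 1.79 FPKM in CIRBP and 1.19 to 2.36 FPKM in NC, and at 314 to 683 FPKM for the libraries labelled si-CIRBP and 42.4 to 661 FPKM in si-NC. Markers of macrophages summed to at most 3.98 FPKM, those of endothelium to at most 5.27 FPKM and those of epithelium to at most 18.5 FPKM. Summed expression was 457775 to 502889 FPKM a library, and the steps between low values put depth at 0.842 to 1.03 times that of NC library 1. The absolute depth is unknown. The astrocyte sum was thus higher in CIRBP than in NC and the muscle sum and Col1a1 differed mainly between the pairs; the part of these differences in the results below was not tested.

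Some cold-shock RNA-binding proteins are made in greater amounts, or become more active on RNA, when cells are cooled or stressed. Cirbp and Rbm3 are close relatives, each with a single RNA recognition motif and a glycine-rich tail; they bind mRNA, influence its stability and translation, and are classical genes of mild hypothermia. Cirbp can move from the nucleus to stress granules, and outside the cell its protein acts as a danger signal. Rbmx (hnRNP G) shares the same kind of RNA-binding domain and takes part in splicing. Ybx1, Ybx3 and Carhsp1 carry instead the cold shock domain, a fold inherited from bacterial cold shock proteins. In heart and brain, Cirbp and Rbm3 are studied mainly for their part in hypothermia and in injury after ischaemia.

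Promoters of the 3 genes below are shown because they carry, or lack, a cold-response element described in the mouse Cirbp gene. Each run is the 250 bases upstream of the RefSeq start on build GRCr8, 5′ to 3′ on the gene's strand. Capitals mark TCCCCGCC, the mild cold-responsive element of mouse, and CCAAT or its complement ATTGG, the Y-box after which the Ybx proteins are named. The regions are chr7:10189476-10189725 (minus strand) for Cirbp, chrX:17020655-17020904 (plus strand) for Rbm3 and chr4:166884492-166884741 (minus strand) for Ybx3.
Cirbp: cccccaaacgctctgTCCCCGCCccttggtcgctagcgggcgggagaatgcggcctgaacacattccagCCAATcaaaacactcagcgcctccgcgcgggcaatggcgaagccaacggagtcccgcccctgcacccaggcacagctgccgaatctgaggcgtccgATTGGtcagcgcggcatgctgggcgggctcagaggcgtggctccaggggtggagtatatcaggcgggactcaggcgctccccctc
Rbm3: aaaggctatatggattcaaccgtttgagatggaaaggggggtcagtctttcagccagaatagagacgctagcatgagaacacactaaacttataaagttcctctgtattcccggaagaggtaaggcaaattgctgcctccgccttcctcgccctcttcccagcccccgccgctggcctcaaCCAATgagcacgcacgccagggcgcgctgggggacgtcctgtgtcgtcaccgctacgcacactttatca
Ybx3: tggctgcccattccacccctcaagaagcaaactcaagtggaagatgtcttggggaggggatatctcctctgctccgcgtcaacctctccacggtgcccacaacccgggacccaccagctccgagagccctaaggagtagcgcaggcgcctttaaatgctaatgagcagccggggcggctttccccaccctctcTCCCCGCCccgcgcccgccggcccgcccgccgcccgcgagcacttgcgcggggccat

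All 6 genes matched a RefSeq promoter by symbol. TCCCCGCC stood 235 to 228 bases before the Cirbp start and 57 to 50 bases before the Ybx3 start, and was not found on either strand in the windows of Rbm3, Rbmx, Ybx1 and Carhsp1. It was present on either strand in 4.22% of 33469 promoter windows of the same length. CCAAT or ATTGG, which do not overlap that element in these windows, was present in 34.0% of them. The window of Cirbp held 2 copies, that of Ybx1 held 3, those of Rbm3, Rbmx and Carhsp1 held 1 each, and that of Ybx3 held 0. At least 3 copies occurred in 2.52% of windows. A match of letters is a description and not a measured binding site. The levels of the 6 genes follow, and any part of these matches in them was not tested.

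Cirbp was higher in the CIRBP libraries. Its level (ENSRNOG00000015999) was 34.3, 36.5 and 36.5 FPKM in CIRBP, against 19.0, 19.8 and 20.1 FPKM in NC. Every CIRBP library lay above every NC library. The means were 35.8 ± 1.27 FPKM in CIRBP and 19.7 ± 0.557 FPKM in NC (SD, n = 3 each), a ratio of 1.82. On the log2(FPKM + 1) scale, the difference was 0.83 with a 95% interval of 0.69 to 0.98 (limma adjusted p = 2.47e-06). Among the tested genes, Cirbp ranked 2696 to 2894 from the top in CIRBP and 5081 to 5317 in NC. The table has 1 row for Cirbp, so fragments of an added CIRBP sequence and of the cells' own gene cannot be told apart in it. In bulk libraries, more RNA per cell and more cells that carry it cannot be told apart either.

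Cirbp was not called lower in the libraries labelled si-CIRBP than in si-NC. It stood at 26.5, 28.6 and 27.7 FPKM for the libraries labelled si-CIRBP, against 29.0, 24.2 and 27.0 FPKM in si-NC. The ranges overlapped, and the highest and the lowest of the 6 values both belonged to si-NC. The log2 difference was 0.05, with a 95% interval of -0.09 to 0.19 (limma adjusted p = 0.609). After scaling to one median it was 0.16 and called higher (adjusted p = 0.0435, against 0.0435 to 0.834 over the alternatives), and 1 of 23 alternatives called it. No direction given for the libraries labelled si-CIRBP therefore rests on a measured loss of Cirbp mRNA. The CIRBP effect exceeded the si-CIRBP effect by 0.78 (95% interval 0.58 to 0.99, limma adjusted p = 0.000577).

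Both groups of the second pair lay between CIRBP and NC. Cirbp was higher in si-NC than in NC by 0.42 on the log2 scale (limma adjusted p = 0.00134), and lower in the libraries labelled si-CIRBP than in CIRBP by a difference of -0.36 (limma adjusted p = 0.00138). The libraries of these pairs did not overlap. The order from low to high was NC, si-NC, si-CIRBP and CIRBP, and only the middle neighbours were not separated by the test. These comparisons share groups with the first 2. The first and second pair also differ in their muscle markers, as above, and the part of that difference in the level of Cirbp was not tested. Within the second pair, the muscle sum of si-NC library 1 was the lowest and its Cirbp of 29.0 FPKM the highest. Other values ran the other way. Library 1 of si-CIRBP had the lowest muscle sum of its group, 491 FPKM, and also the lowest Cirbp, 26.5 FPKM. NC had the lowest Cirbp of all groups, with muscle sums of 4.11 to 5.71 FPKM.

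**Figure D1:**
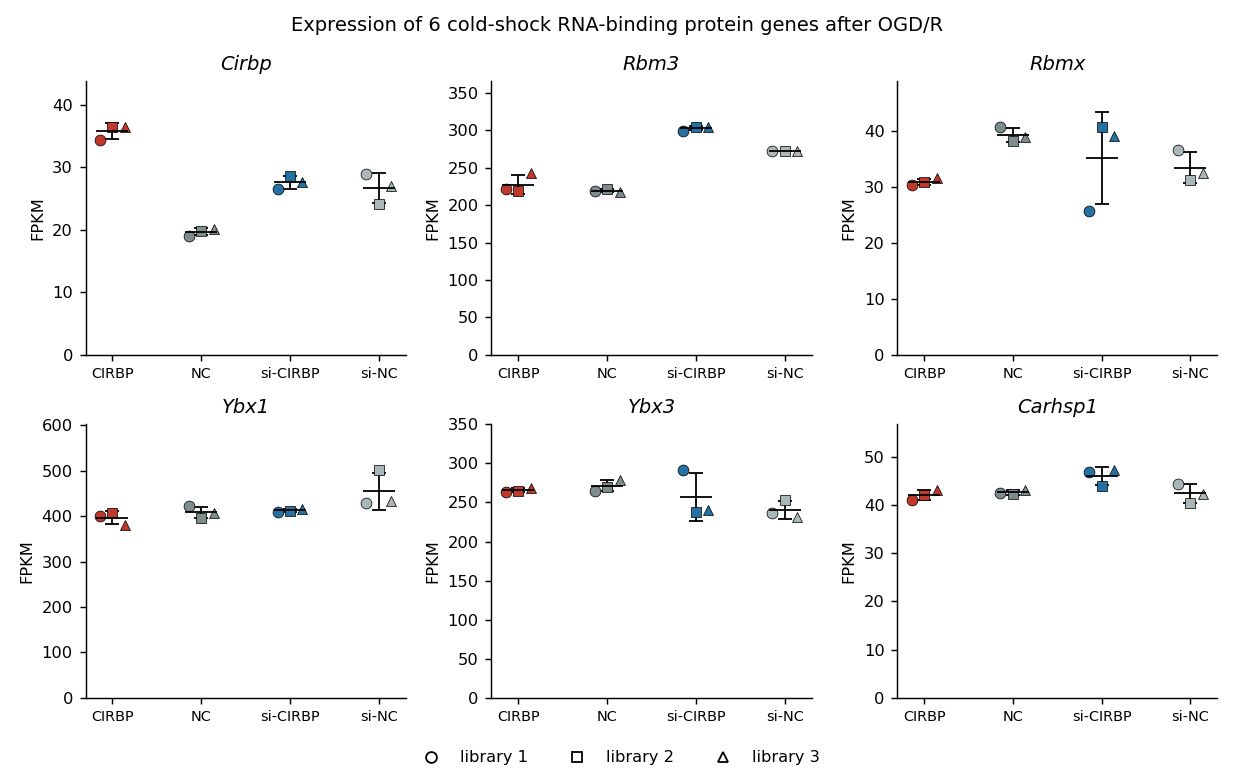
Level of each gene in FPKM (vertical axis, from 0) in the 4 groups (horizontal axis). Points are single libraries, with a marker shape per replicate number, and bars give the mean ± SD of 3. Cirbp stands highest in CIRBP and lowest in NC, Rbm3 is higher in both groups of the second pair, and 1 library labelled si-CIRBP stands apart in Rbmx and Ybx3.

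Rbm3 followed another pattern than Cirbp. Its level (ENSRNOG00000005387) was 221, 219 and 243 FPKM in CIRBP, against 219, 222 and 217 FPKM in NC. The ranges overlapped, CIRBP library 3 alone stood above all NC libraries, and the log2 difference was 0.05 (95% interval -0.05 to 0.15, limma adjusted p = 0.386). After scaling the libraries to one median, the difference was 0.20 and passed the test (adjusted p = 0.00317, against 0.00315 to 0.958 over the alternatives). This gene was thus called or not depending on the scaling. Scaling to one median moved the median difference of all genes in this comparison to 0.03, from -0.08 as deposited.

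In the libraries labelled si-CIRBP, Rbm3 stood at 299.7, 305 and 305 FPKM, against 273, 272 and 273 FPKM in si-NC. The groups did not overlap and each was tight, with SDs of 3.01 and 0.513 FPKM. The log2 difference was 0.15 (95% interval 0.05 to 0.26, limma adjusted p = 0.031), a ratio of means of 1.11. Fitted on only those 6 libraries it was no longer called (adjusted p = 0.194, against 0.00158 to 0.278 over the alternatives), and 11 of 23 alternatives called it, with the same direction in all 23. Without NC library 1, 2 or 3, si-CIRBP library 2 or 3, or si-NC library 1 or 3, the call was lost as well, with adjusted p of 0.0506 to 0.0784.

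Between the pairs, Rbm3 differed more. It was higher in si-NC than in NC by 0.31 (limma adjusted p = 0.00112), and higher in the libraries labelled si-CIRBP than in CIRBP by 0.41 (limma adjusted p = 8.8e-05). In both cases every library of one group lay above every library of the other. The order from low to high was NC, CIRBP, si-NC and si-CIRBP, with overlap only between NC and CIRBP. Rbm3 and Cirbp were therefore both higher in si-NC than in NC, but they ran opposite ways between the libraries labelled si-CIRBP and CIRBP. In rank, Rbm3 was between 209 and 300 from the top in every library.

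Rbmx, the splicing factor, was lower in CIRBP. It stood at 30.3, 30.8 and 31.5 FPKM in CIRBP, against 40.7, 38.2 and 38.9 FPKM in NC. The groups did not overlap, and the log2 difference was -0.34 with a 95% interval of -0.64 to -0.03, but it did not pass the test in the fit of all 12 libraries (limma adjusted p = 0.0606). The spread of this fit is shared by all groups, and Rbmx varied most in the libraries labelled si-CIRBP, at 25.7, 40.7 and 39.0 FPKM. A fit restricted to CIRBP and NC called it lower (adjusted p = 0.000104, against 0.000104 to 0.245 over the alternatives). Scaling to one median gave -0.19, uncalled in the fit of all libraries, and 6 of 23 alternatives called it.

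Library 1 of si-CIRBP decided the second pair for Rbmx. The level of 25.7 FPKM in that library was the lowest of all 12, whereas si-NC stood at 36.5, 31.2 and 32.4 FPKM. With it, the difference was 0.05 (95% interval -0.26 to 0.35, limma adjusted p = 0.832). Without it, the difference was 0.25 (adjusted p = 0.0113, against 0.0113 to 0.996 over the alternatives), and the CIRBP effect minus the si-CIRBP effect for Rbmx was -0.59 (adjusted p = 0.000923, against 0.000923 to 0.375 over the alternatives). The same library stood farther from its group over all genes, with a median absolute log2 distance of 0.217 to the other 2, against 0.132 and 0.126 for the others of that label. Its summed muscle markers, 491 FPKM, were the lowest of its group. The part of that library's difference in the level of Rbmx was not tested. RefSeq lists 3 Rbmx copies by symbol, and 2 of them, Rbmxl1 and Rbmxl1b, have rows of their own; the counting of shared fragments is not stated, so the level of Rbmx is uncertain to that extent.

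Ybx1, the Y-box protein that packs and protects mRNA and binds modified bases in it, was the most highly expressed of the 6 genes. It stood at 400.4, 408 and 381 FPKM in CIRBP, against 422, 397 and 407 FPKM in NC, with overlap and a log2 difference of -0.04 (95% interval -0.18 to 0.10, limma adjusted p = 0.612); after scaling to one median it was 0.11, uncalled. The libraries labelled si-CIRBP stood at 409, 411 and 416 FPKM, against 428, 502 and 432 FPKM in si-NC. All 3 lay below all si-NC libraries, of which library 2 stood apart. The difference of -0.14 (95% interval -0.28 to 0.01) did not pass the test (limma adjusted p = 0.139). It was -0.06 without si-NC library 2. RefSeq names 22 Ybx1 copies by symbol, of which 1, Ybx1-ps3, has its own row, so fragments of Ybx1 and its copies may be mixed.

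Ybx3, a Y-box protein that represses translation and acts at cell junctions, hardly differed in the first pair. It stood at 263, 265 and 269 FPKM in CIRBP, against 265, 270.3 and 279 FPKM in NC. The ranges overlapped and the log2 difference was -0.03 (95% interval -0.20 to 0.13, limma adjusted p = 0.77); after scaling to one median it was 0.12, uncalled. Its level was 292, 237 and 240.5 FPKM for the libraries labelled si-CIRBP, against 237, 253 and 231 FPKM in si-NC. Library 1 of si-CIRBP was the highest of all 12 here, whereas it was the lowest in Rbmx. The difference of 0.09 did not pass the test (limma adjusted p = 0.413) and was -0.01 without that library.

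Carhsp1, a small cold shock domain protein that stabilises the mRNA of tumour necrosis factor, varied least. It stood at 41.0, 42.0 and 43.1 FPKM in CIRBP, against 42.4, 42.2 and 43.1 FPKM in NC. The log2 difference was -0.02 (95% interval -0.13 to 0.09, limma adjusted p = 0.784). After scaling to one median it was 0.13 and called higher (adjusted p = 0.0318, against 0.00263 to 0.995 over the alternatives), so the sign turned with the scaling. In the libraries labelled si-CIRBP it stood at 46.8, 43.9 and 47.3 FPKM, against 44.4, 40.5 and 42.2 FPKM in si-NC. The ranges overlapped, and the difference of 0.12 did not pass the test (95% interval 0.01 to 0.22, limma adjusted p = 0.0949). With scaling to one median it was 0.23 and called (adjusted p = 0.00363, against 0.00363 to 0.34 over the alternatives).

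Counted together, 1 of the 6 genes was called in CIRBP against NC, where 54% of all tested genes were called. Cirbp was that gene. In the libraries labelled si-CIRBP against si-NC 1 of 6 was called, Rbm3, beside 29.6% of all tested genes. The difference between both effects was called for 1 of 6, Cirbp, beside 17.8% of all tested genes. Calls with a positive difference, as for Cirbp, made up 6.87% of all tested genes. For si-NC against NC it was 2 of 6, Cirbp and Rbm3, beside 34.4%, and for si-CIRBP against CIRBP also 2 of 6, Rbm3 higher and Cirbp lower, beside 44.6%. Fits of only the groups compared called 2 of 6 in CIRBP against NC beside 70.7%, and 0 of 6 in the second pair beside 8.1%. They called 4 of 6 in si-NC against NC beside 31.6%, with Rbmx and Ybx3 added as lower, and 2 of 6 in si-CIRBP against CIRBP beside 40.1%. In the first pair the share of genes whose libraries did not overlap was 74.7% of all tested, and 2 of the 6 (Cirbp and Rbmx) were among them. The same share was 36.1% for the second pair, and there Rbm3 and Ybx1 were the 2 of 6. It was 53.1% for si-NC against NC, with 5 of the 6, and 55.4% for si-CIRBP against CIRBP, with 4 of the 6. The median difference of the 6 genes was -0.02 in CIRBP against NC, beside -0.08 over all tested genes, and 0.07 against -0.04 in the second pair.

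The spread between group means sets the same 6 genes apart from one another. Cirbp spanned 0.83 on the log2 scale from its lowest to its highest group, which is at the 73.6th percentile of tested genes. Rbm3 spanned 0.46, Rbmx 0.34, Ybx1 0.19, Ybx3 0.18 and Carhsp1 0.13, and the median tested gene spanned 0.56. Carhsp1 was at the 2.09th percentile, among the least variable genes of the table. Ybx1 ranked between 100 and 160 from the top in every library, and Ybx3 between 194 and 282.

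**Figure D2:**
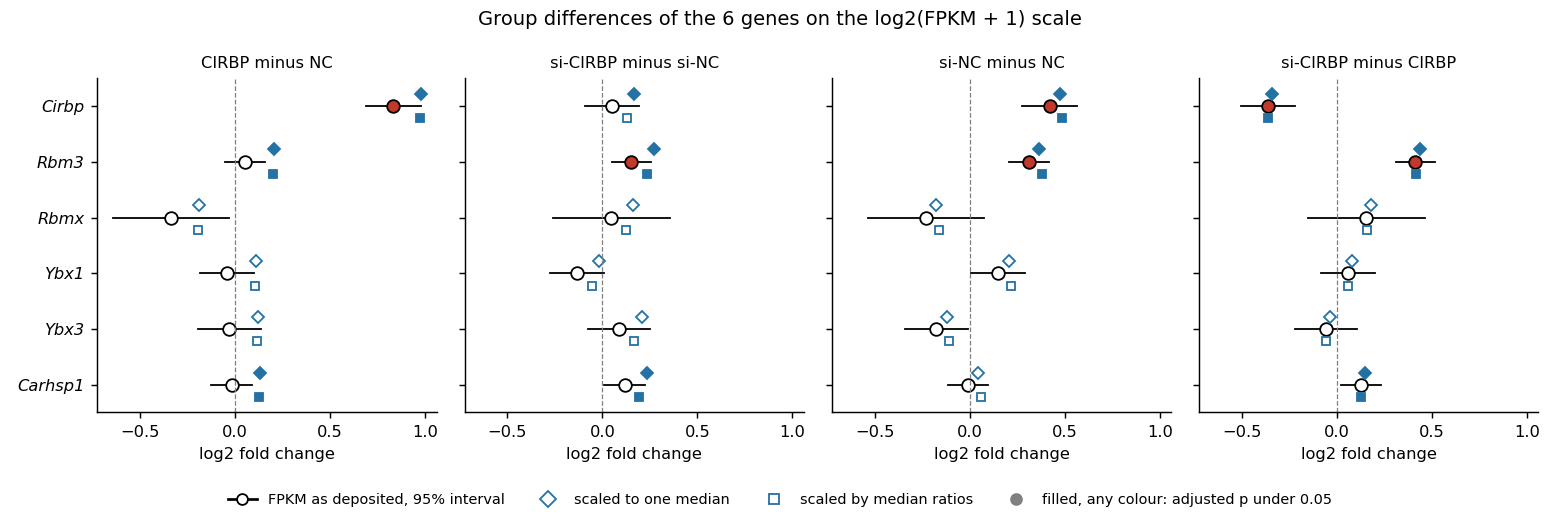
Log2 differences (horizontal axis, log2(FPKM + 1) scale) of the 6 genes in 4 comparisons, 1 panel each. Circles are FPKM as deposited with 95% intervals, diamonds and squares the 2 scalings, and filled symbols have an adjusted p under 0.05. Cirbp lies at 0.83 in CIRBP against NC and near 0 in the second pair, and the scalings shift each gene of the first pair upward by about the same amount.

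A ratio of genes within a library does not change when that library is rescaled. The ratio of Cirbp to Rbm3 was 15.5%, 16.7% and 15.1% in CIRBP, against 8.68%, 8.94% and 9.26% in NC. It was 8.86%, 9.39% and 9.09% in the libraries labelled si-CIRBP, against 10.6%, 8.88% and 9.88% in si-NC. CIRBP alone stood apart. On the log2 scale the ratio was higher in CIRBP than in NC by 0.81 with Rbm3, 1.21 with Rbmx, 0.91 with Ybx1, 0.90 with Ybx3 and 0.88 with Carhsp1. In all 5 ratios the groups were apart, and the two-sided exact permutation p was 0.1, the smallest that 3 against 3 can give. The 5 ratios share Cirbp, so they largely repeat the difference of that gene and are not 5 separate results.

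In the second pair, 0 of the 5 ratios kept the groups apart. The differences in log2 ratio, si-CIRBP minus si-NC, ran from -0.10 with Rbm3 to 0.19 with Ybx1 (two-sided exact permutation p of 0.3 to 1). Between si-CIRBP and CIRBP they ran from -0.79 with Rbm3 to -0.32 with Ybx3, with all 5 apart (exact permutation p = 0.1). Between si-NC and NC the ratio to Rbm3 was not apart (0.13, exact permutation p = 0.3) and neither was that to Ybx1 (0.29, exact permutation p = 0.3). The ratios to Rbmx, Ybx3 and Carhsp1 were higher in si-NC by 0.68, 0.62 and 0.45, with the groups apart.

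**Figure D3:**
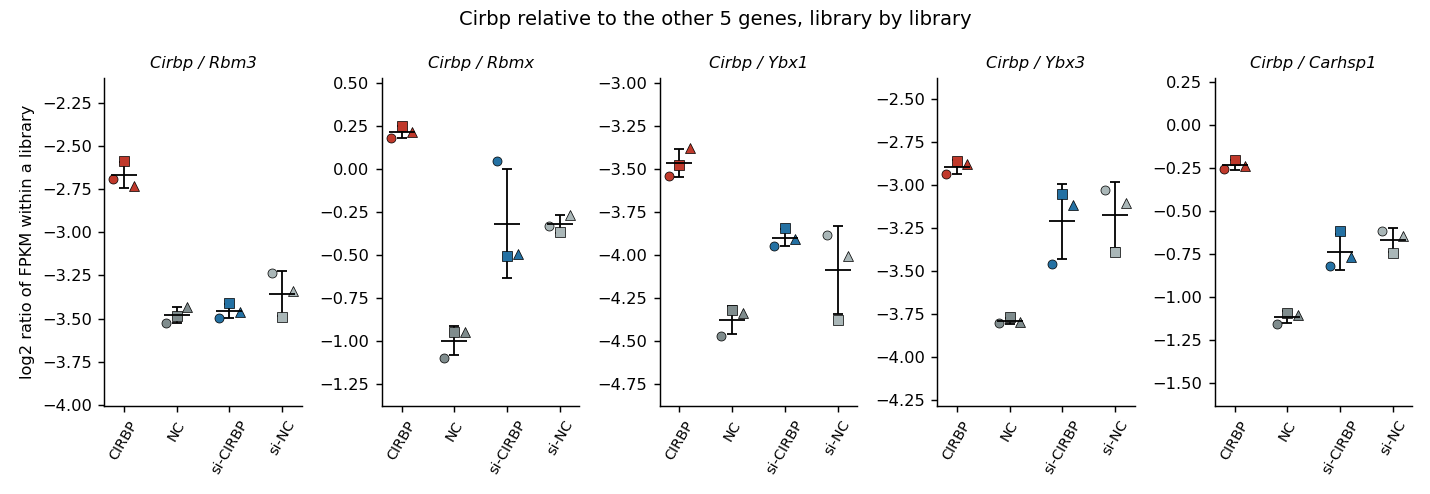
Log2 ratio of Cirbp to each of the other 5 genes (vertical axis, within each library) in the 4 groups (horizontal axis). Points are single libraries, with a marker shape per replicate number, and bars give the mean ± SD of 3. The 3 CIRBP libraries lie above the 3 NC libraries in each panel, and the groups of the second pair overlap.

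The genes most like Cirbp over the 12 libraries were none of the other 5. Likeness was the root mean square difference of centred log2 values, ranked over 12666 genes with a symbol of their own. Mboat1, a lysophospholipid acyltransferase, was closest with 0.07, followed by Fbxo5 (an inhibitor of the anaphase-promoting complex), Slc50a1 (a sugar transporter), Cenpt (a kinetochore protein) and Haus4 (a spindle augmin subunit). Mboat1 averaged 20.7 FPKM in CIRBP, 11.5 FPKM in NC, 16.1 FPKM across the libraries labelled si-CIRBP and 14.2 FPKM in si-NC. The other 5 genes ranked from 2876 (Carhsp1) to 6963 (Rbmx). For Rbm3, the closest were Cdk4, the cyclin D kinase, with 0.04, Ube2n, Dbnl, Eef1b2 and Trmt112. Cdk4 averaged 103 FPKM in CIRBP, 99.6 FPKM in NC, 135 FPKM across the libraries labelled si-CIRBP and 123 FPKM in si-NC. These are descriptions over libraries that share their groups.

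Most of the wider Rbm family was lower in CIRBP than in NC. Of 29 tested Rbm genes outside the 6, 20 were lower and 1 (Rbm18) higher in CIRBP than in NC, where 34.2% of all tested genes were called lower and 19.7% higher. The 29 include a gene that passed the filter on low values through the second pair alone and was not called in either pair. Rbm19, needed for ribosomal RNA processing, averaged 4.99 ± 0.199 FPKM in CIRBP and 16.7 ± 0.329 FPKM in NC (SD, n = 3 each; log2 difference -1.56, limma adjusted p = 5.24e-06). Rbm38, a target of p53 that binds mRNA, averaged 27.1 ± 0.702 FPKM in CIRBP and 49.3 ± 1.27 FPKM in NC (-0.84, limma adjusted p = 1.56e-06). Rbm22, a spliceosome component, averaged 37.3 ± 0.769 FPKM in CIRBP and 63.0 ± 0.498 FPKM in NC. The family's median difference was -0.48, beside -0.08 over all tested genes, and 16 lower and 2 higher were called after scaling to one median, where 26.2% of all genes were lower and 28.7% higher.

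In the libraries labelled si-CIRBP, where Cirbp was not lower, 15 of these 29 genes were lower and 1 (Rbm14) higher than in si-NC, beside 20.5% and 9.08% of all tested genes. Rbm33 averaged 15.0 ± 0.547 FPKM in those libraries and 25.4 ± 2.09 FPKM in si-NC (SD, n = 3 each; log2 difference -0.72, limma adjusted p = 6.74e-05). The family's median was -0.29 beside -0.04 over all tested genes. Fitted on those 6 libraries only, 4 were lower and 0 higher, beside 6.24% and 1.87% of all genes, and 10 were lower after scaling to one median, beside 13.3%. Lower in both pairs were 13 of the 29, Rbm6, Rbm7, Rbm19, Rbm22 and Rbm38 among them, beside 17.8% of all tested genes. That count was 8 after scaling to one median, beside 11.4%, and 4 in fits of only the groups compared, beside 5.98%.

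**Figure D4:**
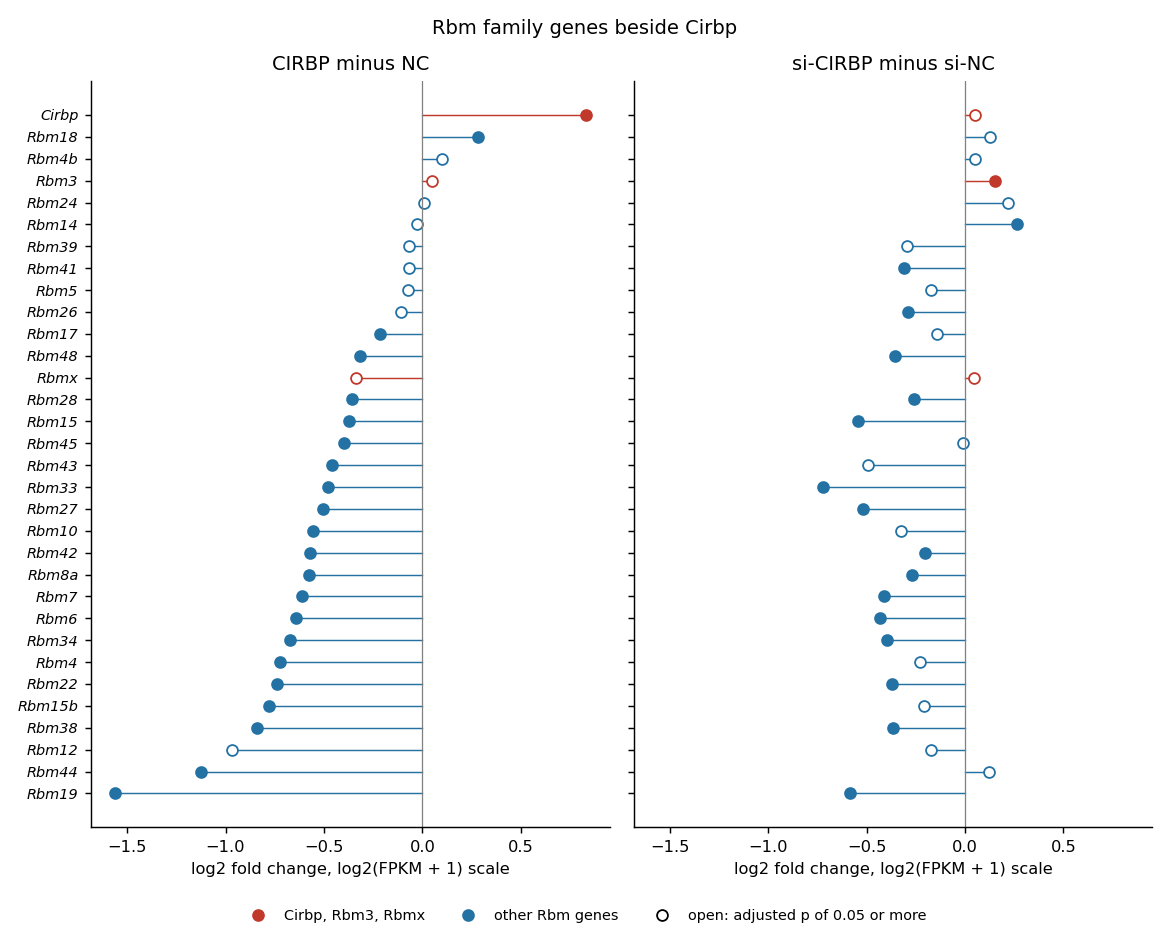
Log2 difference (horizontal axis, log2(FPKM + 1) scale) of Cirbp, Rbm3, Rbmx (red) and 29 other Rbm genes (blue), ordered by CIRBP against NC (left) and shown for si-CIRBP against si-NC on the right. Filled points have an adjusted p under 0.05. In the left panel 20 blue points are called lower and 1 higher, and in the right panel 15 lower and 1 higher.

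Of 17 tested stress granule genes, 9 were lower and 2 higher in CIRBP than in NC, beside 34.2% lower and 19.7% higher among all tested genes. Caprin1, a granule scaffold, averaged 123 ± 0.615 FPKM in CIRBP and 207 ± 2.24 FPKM in NC (log2 difference -0.75, limma adjusted p = 5.99e-06). Pabpc4, a poly-A binding protein, averaged 80.7 ± 1.76 FPKM in CIRBP and 118 ± 0.925 FPKM in NC (-0.55, limma adjusted p = 2.35e-06). In the libraries labelled si-CIRBP 9 were lower and 0 higher than in si-NC, Caprin1 and Pabpc4 among them, beside 20.5% and 9.08% of all tested genes. Fits of only the groups compared gave 14 lower and 2 higher in the first pair, where they called 42.8% of all genes lower and 27.9% higher. They gave 2 lower and 0 higher in the second, beside 6.24% and 1.87%. The list's medians were -0.27 and -0.23 in the first and the second pair, beside -0.08 and -0.04 over all tested genes. After scaling to one median they were -0.12 and -0.11, beside 0.03 and 0.06. With that scaling 7 were lower and 2 higher in the first pair, beside 26.2% and 28.7%, and 5 lower and 0 higher in the second, beside 13.3% and 17%.

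Among 10 importers and modifying enzymes of Cirbp, 5 were lower and 1 higher in CIRBP than in NC, beside 34.2% and 19.7% of all tested genes. After scaling to one median 4 were lower and 3 higher, beside 26.2% and 28.7%, and the list's median was -0.10, against -0.25 as deposited. Tnpo1, the transportin that brings Cirbp into the nucleus, averaged 31.5 ± 1.28 FPKM in CIRBP and 44.0 ± 1.89 FPKM in NC (log2 difference -0.47, limma adjusted p = 4.56e-05). Prmt1, an arginine methyltransferase, averaged 104 ± 3.51 FPKM in CIRBP and 143 ± 5.40 FPKM in NC (-0.45, limma adjusted p = 0.000501). For the second pair 4 were lower and 0 higher, beside 20.5% and 9.08% of all tested genes. After scaling to one median 0 were called in either direction there, beside 13.3% lower and 17% higher among all genes. A fit of only those groups also called 0, beside 6.24% and 1.87%. Of 6 mRNAs reported as Cirbp partners, 4 were lower and 2 higher in CIRBP than in NC, where 54% of all tested genes were called, 34.2% lower and 19.7% higher. After scaling to one median 3 were lower and 2 higher, beside 26.2% and 28.7%. Hif1a, the hypoxia-inducible factor, averaged 39.9 ± 0.802 FPKM in CIRBP and 69.4 ± 0.756 FPKM in NC (-0.79, limma adjusted p = 3.65e-07). Rpa2, a replication protein, averaged 20.6 ± 0.601 FPKM in CIRBP and 13.0 ± 0.649 FPKM in NC (0.63, limma adjusted p = 0.00012). The second pair had 2 lower and 2 higher, beside 20.5% and 9.08% of all tested genes. A fit of only those groups had 1 lower and 0 higher, beside 6.24% and 1.87%. In the fit of all libraries, Hif1a was lower (-0.40) and Txn1, thioredoxin, higher (0.82, limma adjusted p = 0.00907).

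Of 3 tested genes of the receptor side of extracellular Cirbp, Tlr4 averaged 6.95 ± 0.637 FPKM in CIRBP and 15.0 ± 0.195 FPKM in NC (log2 difference -1.01, limma adjusted p = 0.000107). Its co-receptor Cd14 was higher (0.36, limma adjusted p = 0.000612) and the adaptor Myd88 lower (-0.40, limma adjusted p = 0.00132). These 2 lower and 1 higher stood beside 34.2% lower and 19.7% higher among all tested genes. The counts were the same after scaling to one median, beside 26.2% and 28.7%. Tlr4 was also lower in the libraries labelled si-CIRBP than in si-NC (-0.82, limma adjusted p = 0.00145), where the other 2 were not called. Among all tested genes 20.5% were called lower and 9.08% higher there. The list again had 1 lower and 0 higher after scaling to one median, beside 13.3% and 17%, and in a fit of only those groups, beside 6.24% and 1.87%. Of 8 partners and kinases of Ybx1, 4 were lower and 0 higher in CIRBP than in NC, beside 34.2% and 19.7% of all tested genes, and 3 were lower after scaling to one median, beside 26.2%. The 8 include Igf2bp1, which passed the filter on low values through the second pair alone. In the fit of all libraries as deposited it was not called in either pair. Nsun2, which methylates cytosines in RNA that Ybx1 reads, averaged 16.4 ± 0.916 FPKM in CIRBP and 30.8 ± 0.606 FPKM in NC (-0.87, limma adjusted p = 2.92e-06). Nsun2 alone of the 8 was lower in the second pair (-0.28, limma adjusted p = 0.0133), beside 20.5% of all tested genes, and 0 of 8 were called in a fit of only those groups, beside 8.1%. After scaling to one median 0 of the 8 were lower and 1 higher there, beside 13.3% and 17%.

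Csdc2, another gene with a cold shock domain, averaged 16.3 ± 0.0979 FPKM in CIRBP and 6.12 ± 0.404 FPKM in NC (log2 difference 1.28, limma adjusted p = 0.0146). It stood at 19.4, 4.54 and 5.24 FPKM for the libraries labelled si-CIRBP, against 3.09, 2.17 and 2.65 FPKM in si-NC. Every value was above those of si-NC, and library 1 stood far above the other 5 (1.30, limma adjusted p = 0.0258; not called in a fit of only those groups).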

How the data were processed

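Expression was analysed from 1 table of FPKM values per gene and library, as the authors deposited it, with 12 columns, 1 for each library. Bowtie2 2.3.3.1 and Cufflinks 2.2.1 are named per the submitters' processing notes, as are the mouse builds GRCm38 and mm10, without a role for each. Gene identifiers are of rat, and the alignment build, strand setting and counting of shared fragments are not stated there or in the labels. FPKM hold no absolute depth, so no counting interval was computed.

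The main test was limma 3.58.1 (eBayes with trend) in R 4.3.3 on log2(FPKM + 1), pseudocount 1, in 14257 genes with at least 1 FPKM in 3 libraries. The fit had 1 coefficient per group, 8 residual and 2.53 prior degrees of freedom. Two-sided p-values were adjusted over all tested genes (Benjamini-Hochberg), and genes under 0.05 were called. Fold changes on this scale understate those of genes with low values. Ratios of Cirbp to other genes were tested with exact permutation tests (scipy 1.17.1) without a pseudocount. Adjusted over the 5 ratios of a comparison, their p-values were 0.1 or more. The 6 genes, the gene lists and the naming rule were chosen with earlier results of these data known. Named genes were the 6, the 5 most like Cirbp and Rbm3 each, and the called genes of each list with the lowest adjusted p, 4 at most; any other list gene was named with its values known. The procedure was tested on simulated data in which each gene had the same spread in all groups, so unequal spread between groups was not covered. Alternatives changed the pseudocount, filter, scaling, block, groups fitted, trend, variance factor and libraries. Promoters are from RefSeq. All 12 columns were used. A gene of the lists is not reported here.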

Additional observations from a re-analysis of the deposited data

How the results depend on the processing

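Absolute depth is unknown, which limits the precision of low values, and 3 libraries a group cannot give an exact permutation p under 0.1. Cirbp kept its direction and its call in CIRBP against NC in 23 of 23 alternatives (0.81 to 0.98), and in the difference between both effects in 20 of 20. For the number of the 6 genes called, CIRBP against NC gave 3 with each scaling, 2 in a fit of only those groups, 2 with a variance factor per group, and 5 with each scaling in a fit of only those groups, an alternative chosen after seeing the data. The second pair gave 3 with libraries scaled to one median and 2 with median ratios. It gave 0 in the fit of only its groups, without the trend, with a variance factor, and with each scaling in that smaller fit; si-NC against NC gave 4 in a fit of only its groups. All genes called in the second pair were 1155 in that fit, 1187 and 1183 with it and a scaling, and 2019 with a variance factor. In CIRBP against NC, Carhsp1 turned to 0.13 with either scaling (0.13 too in the smaller fits), and Ybx3 to 0.12 with either scaling in the smaller fits. With a pseudocount of 1 the ratio of Cirbp to Ybx3 was 0.86 and to Carhsp1 0.85 in that comparison. The causes were not tested.

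Scaling to one median also changed the split of all called genes, to 4094 higher and 3739 lower in CIRBP against NC, from 2814 and 4881 as deposited. In the second pair it was 2423 and 1891, from 1294 and 2924. Leaving out 1 library at a time gave 6551 to 8820 genes called in CIRBP against NC, 3247 to 5099 in the second pair, 1529 to 4503 for the difference between effects, 2950 to 6698 for si-NC against NC and 4876 to 7436 for si-CIRBP against CIRBP. The 6 genes then gave 1 to 2, 0 to 2, 1 to 2, 2 to 4 and 2 to 4 calls. The difference between effects had 4503 calls without si-CIRBP library 1, and 1529 to 1592 without CIRBP library 1 or 2 or NC library 1, 2 or 3. The count of si-NC against NC was 3131, 2950 and 3134 without NC library 1, 2 and 3, and 3080 without si-NC library 3.

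With the replicate number as a block, the 5 comparisons called 7512, 3926, 2232, 4525 and 6100 genes, and 1, 1, 1, 2 and 2 of the 6 genes. Same-numbered libraries of CIRBP and NC correlated in their deviations by 0.0965, 0.0482 and 0.0995, each best with its own number. Libraries of CIRBP and NC with unlike numbers correlated by -0.0830 to -0.00817. Deviations were taken from the mean of each group, so positive values at like numbers pull those at unlike numbers down. The values at unlike numbers are therefore not separate evidence. Same-numbered libraries of the second pair correlated by 0.0142, -0.0898 and 0.0405. The main fit did not use the numbers to pair libraries, and whether they mark a pairing in CIRBP and NC was not tested.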

Other observations

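Igf2bp1, an mRNA-binding partner of Ybx1, passed the filter on low values through the second pair alone, so its levels are given without a p-value. It is included in the counts of partners and kinases of Ybx1 above. It stood at 2.48, 2.11 and 1.97 FPKM for the libraries labelled si-CIRBP, against 0.206, 3.23 and 2.45 FPKM in si-NC. In CIRBP it was listed at 0, 0.0170 and 0 FPKM, against 0.0661, 0.208 and 0.0392 FPKM in NC. The low si-NC value belonged to library 1, which also had the lowest summed muscle markers of the second pair; whether these go together was not tested.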
